A study of Mus musculus with 6 samples.

Results

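The genes described here are 10 that answer to amino acid shortage and to the integrated stress response: Atf4, Atf5, Ddit3, Trib3, Asns, Chac1, Sesn2, Psat1, Phgdh and Mthfd2. They were taken by name: every non-control probe on the array whose gene name in the deposited scanner files is one of the 10. This gave 14 probes of 41174, and 10 genes of 21438 that were tested. Of the 10 genes, 7 had 1 probe, Trib3 and Sesn2 had 2 probes each and Phgdh had 3. No measured value was used to choose them, but the choice was made with earlier results of these data known.

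Cells sense a lack of amino acids, damaged mitochondria or misfolded protein through kinases that phosphorylate the translation factor eIF2alpha. Most translation then slows, while that of the transcription factors ATF4, ATF5 and CHOP (the product of Ddit3) is favoured. ATF4 turns on genes that make, import or spare amino acids, among them Asns, Chac1, Sesn2, Trib3 and the serine and folate enzymes Phgdh, Psat1 and Mthfd2. In the nervous system astrocytes are a main site of serine synthesis through Phgdh and Psat1. ATF4 itself is controlled largely at translation, which an mRNA array does not measure.

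Total RNA of the spinal cord of male C57BL/6 mice aged 8 weeks was measured on 1 Agilent one-colour array per sample. There were 3 wild-type samples and 3 Dhtkd1 null samples (labelled dhtkd1-/-), with no other allele or treatment named. Dhtkd1 encodes a subunit of a mitochondrial enzyme complex in the breakdown of lysine and tryptophan. The comparison of the groups is read here for genes that respond to amino acid and mitochondrial stress. The labels give neither the part of the gene deleted nor whether each replicate is a separate animal, so p-values measure the spread between these samples.

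Signals are log2 intensities relative to the 75th percentile of the same array, so a value of 1 means 2 times the signal of that percentile. Differences are Dhtkd1 null minus wild-type on the log2 scale, with the moderated standard error (SE) or 95% interval from limma. The 75th percentile was 950.4 to 1054.5 intensity units, and 78.4% to 82.0% of spots per array were well above background. At both Dhtkd1 probes the groups did not overlap, with null samples the lower. The differences were -1.08 (SE 0.08) and -1.07 (SE 0.28), and neither passed over all probes (limma adjusted p 0.0862 and 0.511). What is deleted is not stated, so the probes may lie outside it. The defining genes of the cord were measured: 9 of 9 caudal Hox genes and 6 of 6 motor neuron genes passed the filter on dim probes. The arrays lie on 2 slides. Slide 1 holds wild-type replicate 2 and the 3 null samples, and slide 2 holds wild-type replicates 1 and 3, so the difference within slide 1, where 1 wild-type array stands against 3 null arrays, is given beside the results.

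Each probe is a 60-base oligonucleotide, and the sequences of 4 are shown because 2 of them carry the values of the transcription factors Atf4 and Ddit3, and the other two are second readings of Trib3 and Phgdh, against which the brighter probe of the same gene is set. No base is marked in these 4, so all letters are lower case.
Atf4 probe: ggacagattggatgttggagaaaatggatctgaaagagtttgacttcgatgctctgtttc
Ddit3 probe: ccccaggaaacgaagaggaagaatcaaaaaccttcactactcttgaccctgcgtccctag
Trib3 dimmer probe: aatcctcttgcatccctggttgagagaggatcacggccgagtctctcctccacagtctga
Phgdh dimmest probe: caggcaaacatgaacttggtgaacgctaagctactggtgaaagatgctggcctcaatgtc

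The files place the Atf4 probe on the mm9 genome at chr15:80087079-80087138 and the dimmer Trib3 probe at chr2:152164025-152164084. The Ddit3 probe spans 304 bases at chr10:126732518-126732821 and the dimmest Phgdh probe 709 bases at chr3:98118326-98119034, both more than the 60 bases of the probe, so each is split over a gap in the genome. The other 2 Phgdh probes are not independent of each other: the last 17 bases of one are the first 17 of the other, GAGAGGGGATCGCAGAA. Exon and untranslated region were not assigned, since no annotation of that build was used here. All 14 probes were well above background on all 6 arrays, and none was saturated.

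No gene of the 10 changed with the loss of Dhtkd1 at an adjusted p under 0.05 (limma over 21438 genes), and neither did any other gene (0% of all genes tested). The lowest adjusted p of the 10 was 0.504, for Mthfd2. At an unadjusted p under 0.05, 2 of the 10, Mthfd2 and Chac1, were higher in null samples, where 5.76% of all genes were, and 0 were lower, where 3.25% were. The same 2 were the genes whose 3 null samples all lay above the 3 wild-type samples (9.18% of all genes), and for 0 of the 10 did they all lie below (5.63%). Of the 10 genes 7 had a difference above 0, against 54.5% of all genes, with a median difference of 0.12 against 0.02 over all genes. Within slide 1 the median was -0.04 and 5 of the 10 were above 0. With slide as a fixed block in the fit, neither Mthfd2 nor Chac1 was at an unadjusted p under 0.05, and Trib3 was the 1 member that was. Values given below under a block for slide are from that fit. With slide as a random block, where the fitted correlation within slides was 0.011, the count of members higher at an unadjusted p under 0.05 stayed at 2. The 95% interval of 9 of the 10 genes lay between 0.660-fold and 1.64-fold of wild-type, and that of Trib3 reached 2.15-fold.

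**Figure D1:**
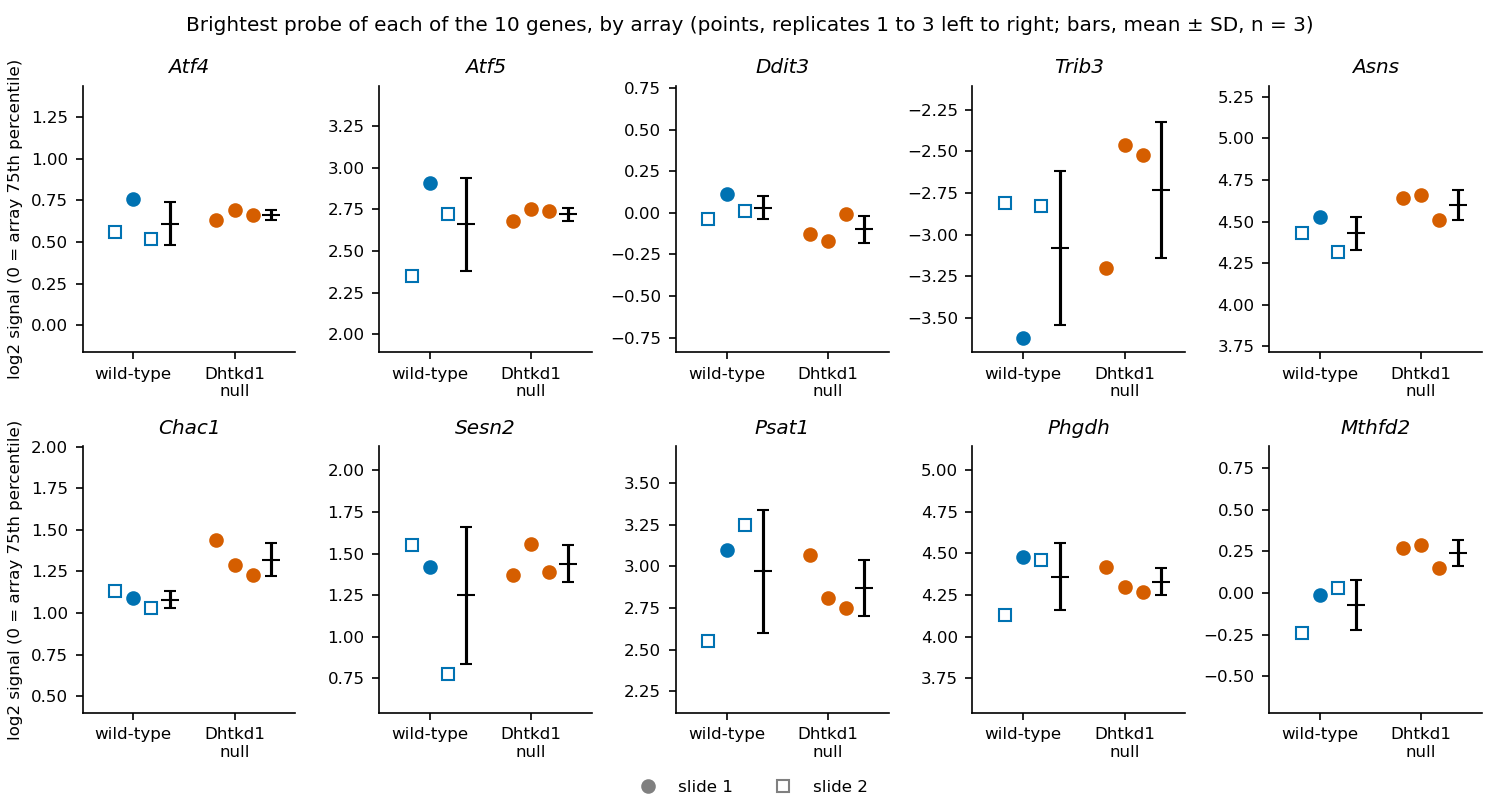
Log2 signal of the brightest probe of each of the 10 genes in the 3 wild-type (blue) and 3 Dhtkd1 null (orange) arrays, with the mean and SD (n = 3) beside the points; filled circles are slide 1, open squares slide 2, and every vertical axis spans the same log2 range. The groups are apart for Chac1 and Mthfd2 and overlap for the other 8 genes.

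Of the transcription factors, Atf4, the factor that gives the response its programme, was at 0.56, 0.76 and 0.52 in wild-type replicates 1, 2 and 3 and at 0.63, 0.69 and 0.66 in the null replicates. The null values lie inside the wild-type range. The difference was 0.05 (95% interval -0.16 to 0.26, adjusted p 0.875 by limma), which on a linear scale is 1.03-fold with an interval of 0.892 to 1.20. Within slide 1 it was -0.10, with all 3 null samples below wild-type replicate 2, and with arrays centred on their median it was -0.002.

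Atf5, a related factor tied to mitochondrial stress, was measured by a probe at chr7:52067718-52067777. It was at 2.35, 2.91 and 2.72 in wild-type and at 2.68, 2.75 and 2.74 in null samples. Wild-type replicate 1 was the lowest of the 6 and wild-type replicate 2 the highest, and the groups overlap. The difference was 0.07 (interval -0.30 to 0.43, adjusted p 0.902 by limma), but -0.09 without wild-type replicate 1 and -0.18 within slide 1.

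Ddit3, whose product CHOP promotes cell death in long-lasting stress, was at -0.04, 0.11 and 0.01 in wild-type and at -0.13, -0.17 and -0.01 in null samples. Null replicates 1 and 2 were the lowest of the 6, and null replicate 3 lay between wild-type samples. The difference was -0.13 (interval -0.32 to 0.07, adjusted p 0.660 by limma), and -0.21 within slide 1. It was below 0 in all 19 alternative settings, from -0.21 to -0.09, though several of these cannot change the difference of a gene with 1 probe.

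Among the brakes and effectors of the response, Trib3, a pseudokinase that ATF4 and CHOP induce and that damps them, had the widest spread. Its brighter probe (chr2:152163355-152163414) was at -2.81, -3.62 and -2.83 in wild-type and at -3.20, -2.46 and -2.52 in null samples. Wild-type replicate 2 was lowest and null replicate 1 next, so the groups overlap. The difference was 0.36 with an SE of 0.30 (interval -0.39 to 1.10, adjusted p 0.746 by limma).

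Within slide 1, where only wild-type replicate 2 stands for wild-type, the Trib3 difference was 0.89 (limma adjusted p 0.595 in the fit that holds slide as a block), and without that sample it was 0.09. The dimmer probe was at -4.55, -4.57 and -4.62 in wild-type and at -4.46, -4.21 and -4.57 in null samples. Null replicate 2 was the highest at both probes, but wild-type replicate 2, the lowest at the brighter probe, was level with null replicate 3 and above wild-type replicate 3 at the dimmer one. There the difference was 0.17 (SE 0.11, probe fit adjusted p 0.699 by limma).

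Sesn2 encodes a leucine sensor that restrains the growth kinase mTORC1. Its brighter probe (chr4:132047974-132048033) was at 1.55, 1.42 and 0.78 in wild-type and at 1.37, 1.56 and 1.39 in null samples. Wild-type replicate 3 alone was low, and without it the difference of 0.19 (SE 0.21, adjusted p 0.800 by limma) became -0.05. Within slide 1 it was 0.02. The other probe (chr4:132048858-132048917) was at 0.91, 0.65 and 0.94 against 0.77, 0.88 and 0.69, with a difference of -0.06 (SE 0.11), and wild-type replicate 3 was there the highest sample. The probes thus differ in sign.

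Chac1 breaks down glutathione and is one of the sensitive markers of ATF4 activity in cultured cells. At chr2:119179990-119180049 it was at 1.13, 1.09 and 1.03 in wild-type and at 1.44, 1.29 and 1.23 in null samples. All null samples were higher than all wild-type samples, with a gap of 0.10 between the groups. The wild-type mean was 1.08 ± 0.05 (SD, n = 3) and the null mean 1.32 ± 0.10 (SD, n = 3).

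The Chac1 difference was 0.23 (SE 0.08, interval 0.04 to 0.43), or 1.18-fold. It did not pass over all genes (unadjusted p 0.0278, adjusted p 0.522 by limma), and the exact permutation p was 0.1, the smallest that 3 against 3 samples can give. Within slide 1 the difference was also 0.23, with the 3 null samples above wild-type replicate 2, but with slide as a block the unadjusted p was 0.123 (limma adjusted p 0.705). It stayed between 0.18 and 0.28 in the 19 alternatives, with adjusted p of 0.350 to 0.843.

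**Figure D2:**
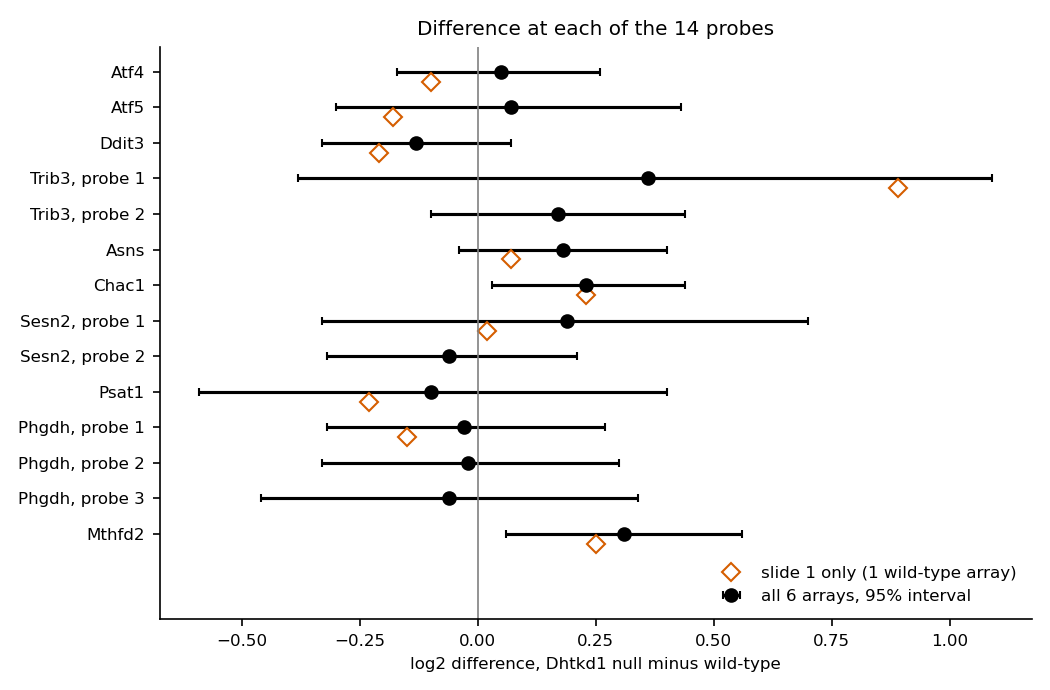
Log2 difference, Dhtkd1 null minus wild-type, at each of the 14 probes with its 95% interval from limma over all 6 arrays (black), probes of a gene numbered from the brightest; open diamonds give the difference within slide 1 for the probe that represents the gene. Chac1 and Mthfd2 have intervals above 0, and Trib3 has the widest interval, -0.38 to 1.09 in the fit of single probes.

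Of the enzymes, Mthfd2, a mitochondrial folate enzyme that feeds one-carbon units and rises in many mitochondrial diseases, had the lowest p of the 10. At chr6:83256518-83256577 it was at -0.24, -0.01 and 0.03 in wild-type and at 0.27, 0.29 and 0.15 in null samples. All null samples were above all wild-type samples, with a gap of 0.12. The wild-type mean was -0.07 ± 0.15 (SD, n = 3) and the null mean 0.24 ± 0.08 (SD, n = 3).

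The Mthfd2 difference was 0.31 (SE 0.10, interval 0.07 to 0.56), or 1.24-fold, which did not pass either (unadjusted p 0.0204, adjusted p 0.504 by limma; exact permutation p 0.1). It was 0.25 within slide 1, where the block for slide gave an unadjusted p of 0.153 (limma adjusted p 0.723). In the 19 alternatives it was 0.23 to 0.36, with adjusted p of 0.346 to 0.846. Mthfd2 and Chac1 kept their direction in each of the 19 alternatives, but not all of these could change it. For a gene with 1 probe, the trend and robust options, the other filters on dim probes, the mean of kept probes and the replicate block leave the difference as it was. Slide as a fixed block gives the same difference as slide 1 alone. The count of members at an unadjusted p under 0.05 was 0 when null replicate 1 or null replicate 2 was left out, and 1, Mthfd2, when wild-type replicate 2 or 3 was.

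Markers of microglia differed between the groups in the same direction as these 2 genes. Of 9 markers, all tested, 8 had a difference above 0, and 5 were higher at an unadjusted p under 0.05, as 5.76% of all genes were (lowest limma adjusted p of the 9, 0.505). Their array means relative to the mean over the 6 arrays were -0.45, -0.07 and 0.05 in wild-type and 0.07, 0.21 and 0.19 in null samples, so the groups did not overlap. Wild-type replicate 1 was lowest and null replicate 2 highest both there and in Mthfd2. The same held for the mean of the adipocyte markers, at -1.4 and 1.73. Chac1 did not share this, being lowest in wild-type replicate 3 and highest in null replicate 1. All tested caudal Hox, skeletal muscle, adipocyte and sensory ganglion markers also had differences above 0, where 54.5% of all genes did. So did 8 of 9 blood leukocyte markers (median 1.12, against 0.33 for microglia), 5 of 6 red blood cell, 6 of 10 neuron and 4 of 7 endothelial markers. The leukocyte mean was highest in null replicate 2, at 1.46, and lowest in wild-type replicate 3, at -1.14. All motor neuron, Schwann cell and meningeal fibroblast markers were below 0, as were 8 of 11 astrocyte, 8 of 10 oligodendrocyte and 5 of 6 ependymal markers. The part of microglia in the values of Mthfd2 and Chac1 was not tested.

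Asns makes asparagine and is a textbook target of the amino acid response. At chr6:7625194-7625253 it was at 4.43, 4.53 and 4.32 in wild-type and at 4.64, 4.66 and 4.51 in null samples. The groups overlap only where null replicate 3 lies just below wild-type replicate 2. The difference was 0.18 (SE 0.09, interval -0.04 to 0.39, adjusted p 0.599 by limma), and 0.07 within slide 1.

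Phgdh catalyses the first step of serine synthesis from glycolysis. Its brightest probe (chr3:98117098-98117157) was at 4.13, 4.48 and 4.46 in wild-type and at 4.42, 4.30 and 4.27 in null samples, a difference of -0.03 (interval -0.32 to 0.26, adjusted p 0.953 by limma), and -0.15 within slide 1. The overlapping probe was at 3.02, 3.37 and 3.37 against 3.37, 3.18 and 3.15, and the dimmest probe at 0.53, 0.99 and 1.09 against 0.92, 0.79 and 0.72. Wild-type replicate 1 was the lowest sample at all 3 probes. Null replicates 2 and 3 lay between it and the other wild-type samples at each, and null replicate 1 did so except at the overlapping probe, where it was level with the highest. The difference of the brightest probe was 0.01 with normexp background correction.

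Psat1, the next enzyme of that route (chr19:15979970-15980029), was at 2.55, 3.1 and 3.25 in wild-type and at 3.07, 2.81 and 2.75 in null samples. The difference was -0.10 (interval -0.60 to 0.41, adjusted p 0.895 by limma). It was -0.23 within slide 1, and -0.30 without wild-type replicate 1 but 0.05 without wild-type replicate 3. Psat1 and the dimmest Phgdh probe put the 6 samples in the same order, from wild-type replicate 1 through null replicates 3, 2 and 1 to wild-type replicates 2 and 3. Psph, the last enzyme of the route, was chosen for that role after its values were seen. It was at 1.04, 1.33 and 1.08 against 1.21, 1.07 and 0.97, with a difference of -0.07 (adjusted p 0.863 by limma).

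Markers of astrocytes and oligodendrocytes were set beside these enzymes. The 11 astrocyte markers, all tested, had array means relative to their mean over the 6 arrays of -0.07, 0.15 and 0.09 in wild-type and 0.03, -0.07 and -0.14 in null samples. The 10 oligodendrocyte markers had means of -0.20, 0.35 and 0.16 against 0.05, -0.20 and -0.17. Wild-type replicates 2 and 3 had the highest means in both lists and the highest values of Psat1 and of the brightest and dimmest Phgdh probes. Wild-type replicate 1 was level with null replicate 2 as the lowest for the oligodendrocyte list, at -0.20, while null replicate 3 was lowest for the astrocyte list. The part of these cell types in the values was not tested. In cord RNA, fewer cells of a type and less RNA per cell cannot be told apart.

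**Figure D3:**
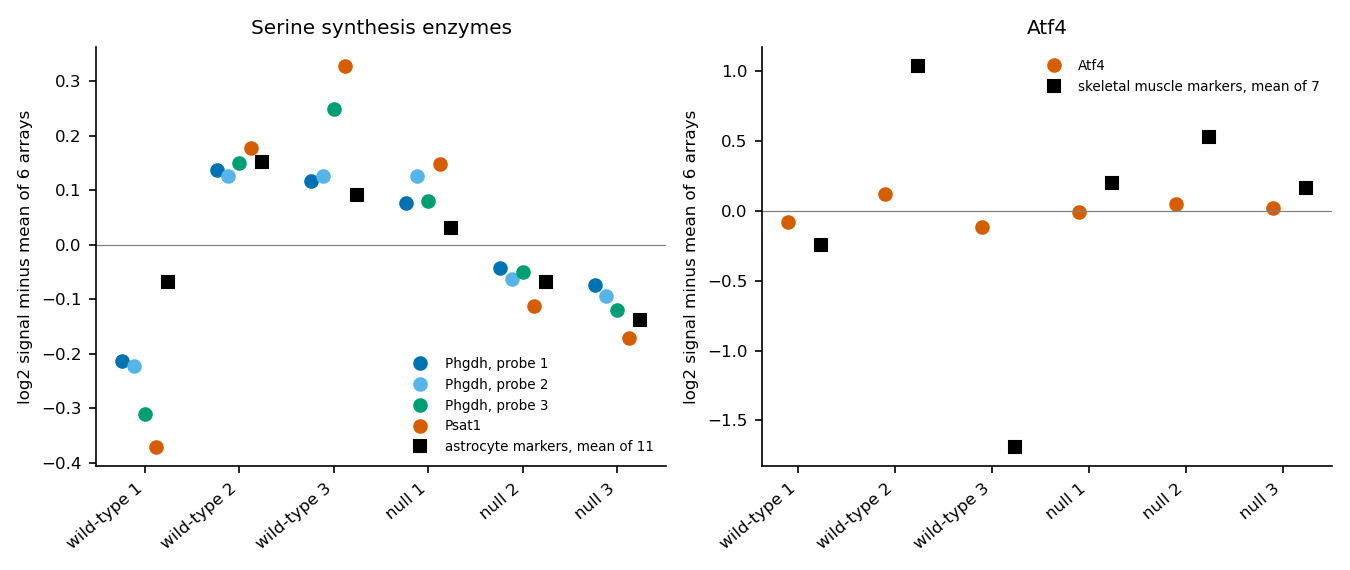
Log2 signal minus the mean of the 6 arrays for the 3 Phgdh probes and Psat1 with the mean of 11 astrocyte markers (left), and for Atf4 with the mean of 7 skeletal muscle markers (right), by array. Wild-type replicate 1 is lowest for Phgdh and Psat1, and the vertical axes differ: Atf4 spans 0.24 and the muscle mean runs from -1.69 to 1.04.

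The samples that were high or low differed from gene to gene, so the 10 did not share 1 pattern. Wild-type replicate 2 was highest for Atf4, Atf5, Ddit3 and Phgdh, and null replicate 2 for Trib3, Asns, Sesn2 and Mthfd2. Wild-type replicate 1 was lowest for Atf5, Psat1, Phgdh and Mthfd2, and wild-type replicate 3 for Atf4, Asns, Chac1 and Sesn2. The genes whose levels over the 6 arrays were most like Atf4 (Pearson correlation over 21433 other genes measured on all arrays) were Srl, Csrp3 and Klhl41, at 0.998, 0.994 and 0.991. All 3 are known as genes of striated muscle. They were picked from these same values, as the highest of 21433 correlations over only 6 arrays, so their match is not a test. Csrp3 and Klhl41 were also dim, at -6.3 and -6.79 in wild-type replicate 3. Of the other 9 members, Atf5 came nearest at 0.688, at rank 2159.

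Atf4 moved little beside these genes: its range over the arrays was 0.24, against 0.89 for Srl, 3.37 for Csrp3 and 2.16 for Klhl41. The 7 skeletal muscle markers, all tested, had array means of -0.24, 1.04 and -1.69 in wild-type and 0.20, 0.53 and 0.17 in null samples. Wild-type replicate 3 was lowest and wild-type replicate 2 highest in both Atf4 and the muscle markers, and the part of muscle RNA in the Atf4 values was not tested.

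The rest of the pathway was taken as 9 lists, of which 120 different genes were tested. None passed over all genes by limma (lowest adjusted p 0.342), and 3 were higher and 2 lower at an unadjusted p under 0.05, where 5.76% and 3.25% of all genes were. The 3 null samples all lay above the 3 wild-type samples for 7 of the 120 and below them for 5, where 9.18% and 5.63% of all genes did so. The same shares apply to the lists below, each too small for a count of 0 at that p to set it apart from all genes. The differences of 59 were above 0 and of 61 below it, so 49.2% were above 0 against 54.5% of all genes, with medians of -0.01 and 0.02. The 5 at an unadjusted p under 0.05 became 8, 11, 9 and 2 when wild-type replicate 1, wild-type replicate 3, null replicate 1 and null replicate 3 were left out in turn. At the head of the pathway, the kinases that phosphorylate eIF2alpha, their regulators and the eIF2 and eIF2B subunits numbered 5 above 0 and 10 below it (median -0.04). Eif2ak2, the kinase PKR that double-stranded RNA activates and interferon induces, was the 1 gene of this list at an unadjusted p under 0.05. It was at -1.29, -1.21 and -1.35 in wild-type and at -1.46, -1.90 and -1.60 in null samples, all null samples being lower, with a difference of -0.37 (SE 0.13, adjusted p 0.517 by limma), and -0.44 within slide 1. Of the 5 genes only Cdkn1a, the cell cycle inhibitor, was at an unadjusted p under 0.05 with slide as a block, where Eif2ak2 was at 0.0684 (limma adjusted p 0.645).

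The partner transcription factors and feedback genes numbered 10 above 0 and 5 below it. Their differences ran from -0.7 to 0.5 (median 0.17), and 0 of 15 were at an unadjusted p under 0.05. Amino acid transporters numbered 3 above 0 and 9 below it (median -0.12). Among them Slc38a3, a glutamine transporter, was at 1.39, 1.38 and 1.47 in wild-type and at 1.15, 1.26 and 1.08 in null samples. All null samples were lower, and the difference was -0.25 (SE 0.08, adjusted p 0.501 by limma). Within slide 1 it was -0.21, with an unadjusted p of 0.126 under the block (limma adjusted p 0.706).

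The serine, glycine and folate enzymes outside the 10 were 5 higher and 8 lower (median -0.05), and 0 of the 13 tested were at an unadjusted p under 0.05. Other enzymes of amino acids and thiols were 9 higher and 8 lower (median 0.02). Gpt2, the mitochondrial alanine aminotransferase, was at 1.63, 1.69 and 1.63 against 1.97, 1.89 and 1.85, with all null samples higher and a difference of 0.25 (SE 0.07, adjusted p 0.457 by limma). Within slide 1 it was 0.21, with an unadjusted p of 0.0864 under the block (limma adjusted p 0.668).

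Cytosolic tRNA synthetases with the exporter Xpot, a class that ATF4 is known to raise as a group, were 4 higher and 9 lower. Their differences ran from -0.16 to 0.05 (median -0.03), with 0 of 13 at an unadjusted p under 0.05. Mitochondrial chaperones and proteases were 4 higher and 8 lower (median -0.04), also with 0 of 12. Genes of protein folding in the endoplasmic reticulum were 12 higher and 2 lower of 14, or 85.7% higher against 54.5% of all genes. Their median was 0.12, and 0 were at an unadjusted p under 0.05, where 5.76% of all genes were higher and 3.25% lower. Their array means were -0.19, -0.07 and 0.08 in wild-type and -0.07, 0.08 and 0.17 in null samples, so the groups overlap.

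Of the secreted, surface and growth arrest genes 7 were higher and 2 lower of 9 tested (median 0.07). Cdkn1a, an inhibitor of the cell cycle that stress and glucocorticoids also induce, was at 0.57, 0.52 and 0.85 against 1.19, 1.30 and 1.28. All null samples were higher, by 0.61 on average (SE 0.11, adjusted p 0.342 by limma), and by 0.74 within slide 1. Vegfa, a growth factor of blood vessels, was higher by 0.37 (SE 0.12, adjusted p 0.505 by limma) at its brightest probe, with all null samples higher. At its other 3 probes it was higher by 0.37, 0.51 and 0.71. The groups overlapped at those with 0.37 and 0.51, and the gap between them was 0.02 at the last. Within slide 1 the brightest probe differed by 0.25, with an unadjusted p of 0.191 under the block (limma adjusted p 0.749).

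The hormones that mark mitochondrial stress in blood were also looked at, chosen for that role after their values were seen. Gdf15 was at -5.31, -5.36 and -5.56 in wild-type and at -5.77, -5.18 and -5.38 in null samples, a difference of -0.04 (interval -0.45 to 0.38, adjusted p 0.959 by limma). Its probe was dim, though well above background on all 6 arrays, so a change in it may be missed. Fgf21 was not well above background on any of the 6 arrays at either of its 2 probes and was not tested.

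**Figure D4:**
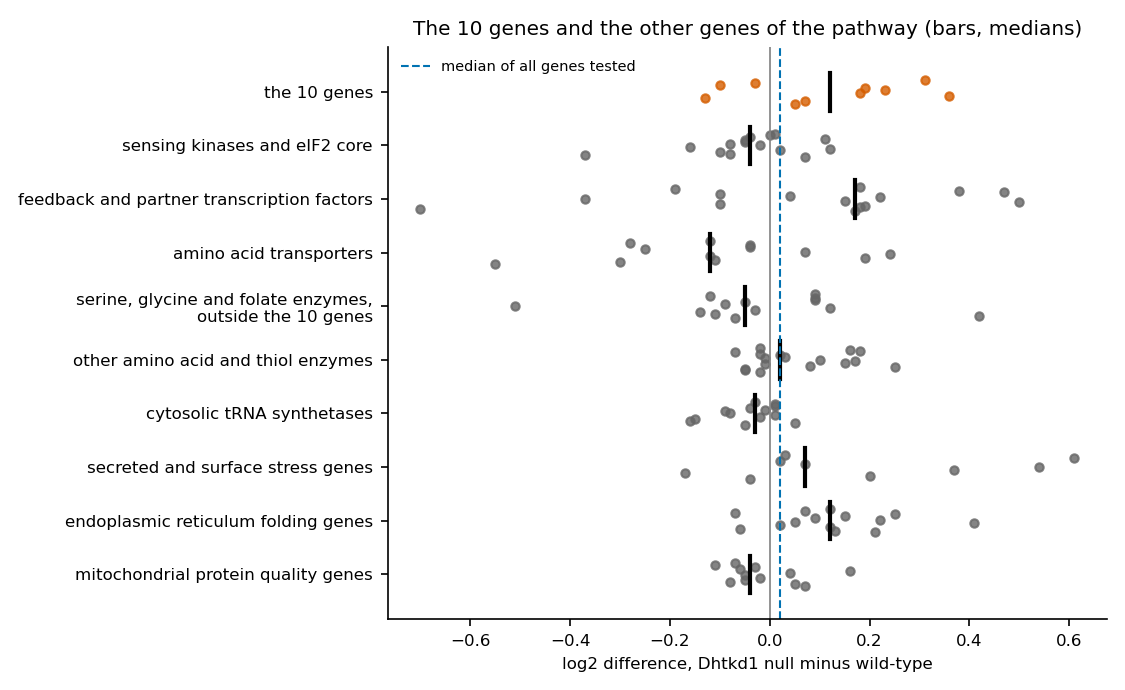
Log2 differences, Dhtkd1 null minus wild-type, of the 10 genes (orange) and of the other pathway genes in 9 lists (grey), 1 point per gene, with the median of each list as a bar and the median of all genes tested, 0.02, as a dashed line. The medians lie between -0.12, for amino acid transporters, and 0.17, for partner transcription factors, and the 10 genes stand at 0.12.

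ATF4 binds DNA with C/EBP partners at a composite element, and the array values can be set beside its core in the promoters. The core searched was TGATGNAA on both strands, in the 300 bases from 250 before to 50 after each RefSeq gene start (GRCm38.p6). It was found in 3.97% of 32851 promoters, and in a promoter of 4.51% of 27025 genes. All 10 genes matched the table, with 12 promoters, and 3 genes held the core: Asns, Chac1 and Trib3. The windows of Asns and Chac1 are shown because the core lies before the start there, with its bases in capitals.
Asns, chr6:7693210-7693248, minus strand: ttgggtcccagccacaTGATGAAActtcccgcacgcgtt
Chac1, chr2:119351033-119351072, plus strand: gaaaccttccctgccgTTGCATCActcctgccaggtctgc

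In Asns the core begins 23 bases before the start and reads on the gene's strand, while in Chac1 it begins 193 bases before the start and reads on the opposite strand. In Trib3 it begins at base 15 after the start. The 3 genes with the core had differences of 0.18, 0.23 and 0.36. Mthfd2, with the lowest p of the 10 and a difference of 0.31, did not hold these letters in its window. Neither did Atf4, Atf5, Ddit3, Sesn2, Psat1 and Phgdh, whose differences ran from -0.13 to 0.19. The genes with and without the core thus overlap in their differences. A match describes the letters only.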

How the data were processed

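The deposited scanner files give intensity per spot, per the file headers from Agilent Feature Extraction 10.7.3.1 (array design 014868, mm9), with background subtraction and detrending inside the array but no normalization across arrays. The authors' deposited value table is in log2 units. How it was made is not given in the sources used here. Its columns have equal medians of 7.22 and follow the log2 processed intensity of their arrays (r of 0.9997 or more), and it served as an alternative.

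Outlier spots were left out, spots of a probe were averaged as log2 values, and each array's 75th percentile over probes was subtracted. Probes well above background on at least 3 of 6 arrays were kept (33190). For each gene the brightest kept probe, by its mean over the arrays, was used (21438 genes), named through RefSeq accessions (GRCm38.p6) where possible: 27668 probes by accession, 5589 by current symbol, 471 by synonym and 7446 by the file's name. Dhtkd1 null minus wild-type was fitted with limma 3.58.1 (lmFit, eBayes, 2-sided) in R 4.3.3, with Benjamini-Hochberg adjustment over all genes, and again over all kept probes; the second fit gives the values of a gene's other probes. The fit was tested on simulated data, with independent noise, no slide effect and planted differences larger than any of the 10 members showed. That test does not cover differences as small as theirs. Members, lists and tests were chosen with earlier results of these data known. Besides the 10 members, the text names Dhtkd1, up to 2 genes per list and direction with an unadjusted p under 0.05 and groups that do not overlap, the 3 genes most like Atf4, and genes said to be chosen for their role. Probe and promoter sequences come from the scanner files and RefSeq.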

Additional observations from a re-analysis of the deposited data

How the results depend on the processing

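In 19 alternatives none of the 10 genes passed the adjusted threshold by limma, the lowest adjusted p being 0.346. Ddit3, Trib3, Asns, Chac1 and Mthfd2 kept their direction in each, and 5 to 8 of the 10 were above 0. Several alternatives change the p-value but cannot change the difference, so the 19 are not separate checks of direction. The other 5 genes turned direction somewhere: Atf4 was -0.002 with median centring, and with slide as a fixed block or slide 1 alone Atf4 was -0.10 and Atf5 -0.18. Phgdh was 0.01 with normexp. Leaving out 1 sample at a time gave -0.09 to 0.19 for Atf5, -0.05 to 0.34 for Sesn2, -0.30 to 0.05 for Psat1 and -0.14 to 0.03 for Phgdh. The 2 members at an unadjusted p under 0.05 became 0 with median centring, 3 with the trend and robust options and 0 to 2 with 1 sample left out. With slide as a fixed block both were lost and the count was 1, a different gene, Trib3. With slide as a random block the count stayed at 2. The members' median of 0.12 became 0.07 with median centring and with the mean of all kept probes, -0.04 with slide as a fixed block and in slide 1 alone, and 0.07 to 0.16 with 1 sample left out. The 5 pathway genes at an unadjusted p under 0.05 became 11 with normexp, 10 with the trend and robust options and 2 to 11 with 1 sample left out, and their median was -0.06 with median centring. Of all genes, 1 was called with each of quantile normalization, median centring, normexp, the authors' value table and the filter on all 6 arrays, 3 with the trend and robust options and 0 to 2 with 1 sample left out. The cause of these changes between settings was not tested.

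The replicate numbers are shared between the groups, but correlations of the deviations of same-numbered samples were -0.016, -0.106 and 0.329, so the numbers were not taken to pair them. With a replicate block 2 members and 9 pathway genes were at an unadjusted p under 0.05. The precision is limited by 3 arrays per group. All member probes were above background.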
